A study of Homo sapiens with 4 samples.

Results

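The nuclear genes for the subunits of the oxidative phosphorylation complexes were followed on 4 arrays, 2 of control cells and 2 of cells expressing a shRNA against PAK1. Members were taken by name alone, as every spot other than a control whose gene name matched the pattern of NDUFA, NDUFB, NDUFC, NDUFS and NDUFV followed by a number, SDHA to SDHD, and names starting with UQCR, COX4 to COX8 or ATP5. This gave 162 of 43118 spots, 108 of 34127 probes and 86 of 27193 gene names per array. Of the 86 genes, 80 encode subunits of complexes I to V, and 6 match the pattern without being structural subunits (NDUFA4L2, COX7A2L, COX4NB, ATP5S, ATP5SL and ATP5L2). NDUFA4, once counted with complex I, was placed with complex IV.

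Oxidative phosphorylation takes place at the inner mitochondrial membrane. Complexes I and II pass electrons from NADH and succinate to ubiquinone, complex III passes them on to cytochrome c, and complex IV reduces oxygen, while complexes I, III and IV pump protons that drive ATP synthesis by complex V. Most subunits are encoded in the nucleus and imported, and a few central ones are encoded by the mitochondrial genome. Transcription factors such as NRF1 and GABP are known to act at the promoters of many of the nuclear genes.

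Both groups were MCF10A.B2 cells, an immortalized human mammary epithelial line that carries a form of Her2 (ErbB2) which the chemical dimerizer AP1510 switches on. The control group is labelled as control and PAK1 wild type, and the PAK1 shRNA group stably carried a Tet-inducible shRNA against PAK1, a p21-activated kinase. All cells of both groups were grown with 5% horse serum, starved of serum for 3 h and given AP1510 for 15 min before total RNA was taken. The labels name no arrays of a non-targeting shRNA and do not say whether control cells carried the construct. The series text speaks of tumor derived cells whereas the sample labels name the cell line, which was followed here. Nothing in the labels of the arrays shows that replicates came from separate cultures, so p-values measure only the spread between these samples, which may be technical.

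Values are normalized log2 intensities, so that a difference of 1 is a 2-fold change. A probe's level depends on the probe as well as on the transcript, and only the same probe was compared between arrays. The 4 arrays lay on 1 slide with 1 scan time, the control arrays at positions 1 and 2 and the PAK1 shRNA arrays at positions 3 and 4, so position and group cannot be told apart. Between 78.9% and 83.1% of probes were well above background on an array. The PAK1 probe read 11.19 and 11.27 in control cells and 10.44 and 10.52 in PAK1 shRNA cells. PAK1 was thus at 59.5% of the control level, a log2 fold change of -0.75 (standard error 0.08; limma, Benjamini-Hochberg adjusted p = 0.00018). All 8 basal epithelial markers were measured, among which 4 were lower (KRT5, KRT14, KRT17 and TP63) and 2 higher, LAMB3 among them. The other 2 did not pass an adjusted p under 0.05, by which 31.8% of all genes tested were lower and 31% higher.

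Nuclear oxidative phosphorylation genes were lower in PAK1 shRNA cells across all complexes. Of the 86 members, 83 had a probe that rose well above background on each array of 1 group or both, and these were tested in the fit over 22020 genes. At an adjusted p under 0.05, 70 of the 83 were lower and 1, NDUFA9, was higher, whereas 31.8% of all genes tested were lower and 31% were higher. The remaining 12 did not pass the threshold. A fall of at least 2-fold was reached by 20 members, against 8.95% of all genes tested. Members had a median log2 fold change of -0.75 (59.7% of control), and all genes tested one of 0.02. Both PAK1 shRNA arrays lay below both control arrays for 75 of the 83 members, where 39.7% of all genes tested did so. For a single value the smallest p of a two-sided exact permutation test is 0.333 in so small a design, so the calls rest on the spread that limma shares across genes.

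**Figure D1:**
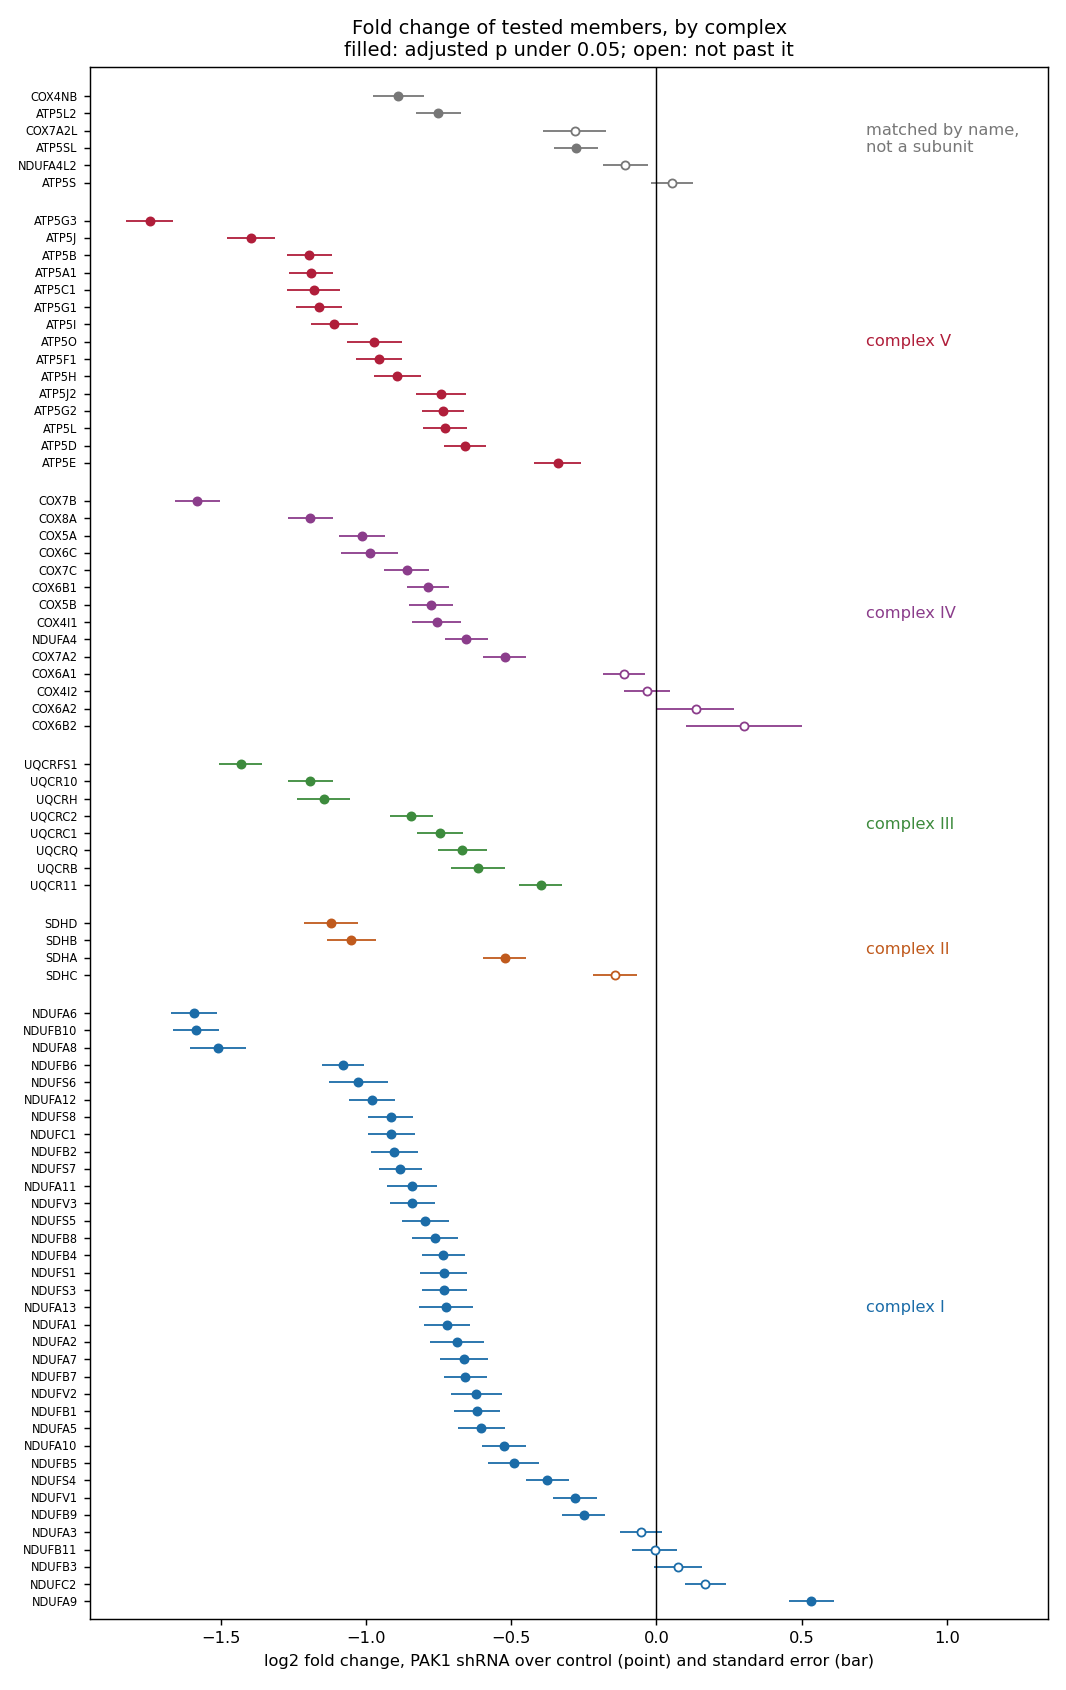
Log2 fold change (PAK1 shRNA over control, horizontal axis) of 82 of the 83 tested members, grouped by complex, with the standard error as a bar. Filled points pass an adjusted p under 0.05. Nearly all filled points lie left of 0, from ATP5G3 at -1.75 to NDUFB9 at -0.25, and NDUFA9 at 0.53 is the filled point on the right.

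The fall could be seen before normalization between arrays. The median raw intensity of the 162 member spots was 26697 and 23052 in control cells, against 10725 and 10816 in PAK1 shRNA cells. The median over all spots other than controls was 501 and 384 in control cells, against 326 and 319 in PAK1 shRNA cells, so that part of the raw gap was shared by the whole array. No member spot was saturated on any array. Members had bright probes, with 73 of the 83 at a mean log2 intensity of at least 13, a limit chosen after the values were seen. Among the 3041 genes of that brightness, 43.5% were lower, with a median log2 fold change of -0.08. Of the 73 bright members 64 were lower, with a median of -0.75.

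**Figure D2:**
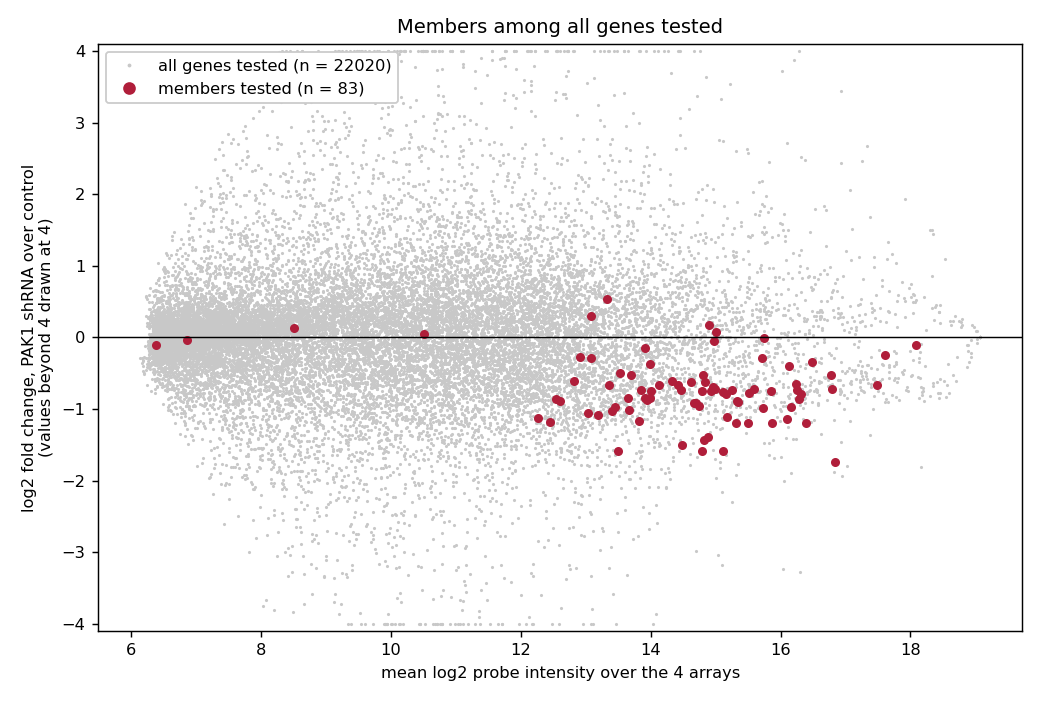
Log2 fold change (vertical axis, values beyond 4 drawn at 4) against mean log2 probe intensity (horizontal axis) for all 22020 genes tested (grey) and the 83 members (red). The members mostly form a band below 0 at high intensities, with a median of -0.75.

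The promoters of several members hold letters of known binding motifs. Those of 6 members are shown because they stand for each complex and for the gene called higher. For each complex the lower member with the largest fall among those with a motif in the window was taken, and NDUFA9 was added as the member that was higher. Each sequence runs 5′ to 3′ from 150 bases before to 30 bases after the annotated start (RefSeq, GRCh38.p14), with matches to GCGCANGCG (NRF1) or CCGGAAG (GABPA) on either strand in capitals, and overlapping matches joined.
NDUFA8: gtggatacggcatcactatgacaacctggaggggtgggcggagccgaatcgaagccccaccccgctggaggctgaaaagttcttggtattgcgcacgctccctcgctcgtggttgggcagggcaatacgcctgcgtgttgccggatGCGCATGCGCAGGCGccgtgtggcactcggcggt
SDHD: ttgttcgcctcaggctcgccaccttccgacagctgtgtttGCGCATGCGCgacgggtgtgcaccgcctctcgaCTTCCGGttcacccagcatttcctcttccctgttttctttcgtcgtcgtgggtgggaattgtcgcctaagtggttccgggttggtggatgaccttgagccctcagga
UQCRFS1: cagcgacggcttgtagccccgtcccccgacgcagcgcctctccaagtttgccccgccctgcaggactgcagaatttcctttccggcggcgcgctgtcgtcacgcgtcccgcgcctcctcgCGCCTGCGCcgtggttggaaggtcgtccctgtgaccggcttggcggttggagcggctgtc
COX8A: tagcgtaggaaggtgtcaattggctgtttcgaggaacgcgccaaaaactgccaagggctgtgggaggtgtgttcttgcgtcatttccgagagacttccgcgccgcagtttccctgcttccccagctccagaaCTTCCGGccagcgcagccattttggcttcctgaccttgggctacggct
ATP5J: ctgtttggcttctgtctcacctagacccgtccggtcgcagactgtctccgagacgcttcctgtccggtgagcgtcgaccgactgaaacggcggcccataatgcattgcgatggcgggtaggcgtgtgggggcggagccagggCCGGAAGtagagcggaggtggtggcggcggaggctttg
NDUFA9: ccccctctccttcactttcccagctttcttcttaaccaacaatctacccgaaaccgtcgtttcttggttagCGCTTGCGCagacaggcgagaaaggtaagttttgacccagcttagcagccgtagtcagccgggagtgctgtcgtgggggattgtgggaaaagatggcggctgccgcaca
The windows are chr9:122159750-122159929 on the minus strand (NDUFA8), chr11:112086723-112086902 on the plus strand (SDHD) and chr19:29213122-29213301 on the minus strand (UQCRFS1). The other windows are chr11:63974470-63974649 on the plus strand (COX8A), chr21:25734875-25735054 on the minus strand (ATP5J, now ATP5PF) and chr12:4648964-4649143 on the plus strand (NDUFA9).

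A longer window of 300 bases, 250 before to 50 after the start, was listed for 70 of the 86 members and for 27305 genes in all. The NRF1 letters occurred in at least 1 window of 22 of the 70 members (31.4%) and of 9.02% of all genes. The GABPA letters occurred in 21 of the 70 members (30%) and in 12.2% of all genes. TATAAA was found for 7 members (10%, against 14% of all genes), and CCAAT for 25 members (35.7%, against 39.7%). The NRF1 letters were present in 18 of 59 lower members and in 4 of the other 11, which include COX7B2 and COX8C, both untested. Those 4 were NDUFA9, NDUFA3, COX6A1 and COX8C. The GABPA letters were present in 20 of the 59 lower members and in 1 of the other 11, COX6A1. These shares are descriptions of the letters in the windows and say nothing of binding.

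Complex I, the NADH dehydrogenase, had 36 members, all tested. Of these 31 were lower, 1 was higher and 4 did not pass, with a median log2 fold change of -0.73. All 7 core subunits that the pattern holds, which carry the flavin and the iron-sulfur clusters, were lower. NDUFS1, the largest subunit, read 14.84 and 14.84 in control cells and 14.18 and 14.03 in PAK1 shRNA cells (log2 fold change -0.73, standard error 0.08, adjusted p = 0.00027). NDUFV1, which binds NADH and the flavin, fell least among the core subunits. It read 15.90 and 15.80 in control cells and 15.59 and 15.55 in PAK1 shRNA cells, a log2 fold change of -0.28 (standard error 0.08, adjusted p = 0.017). The NDUFV1 call was lost in 5 alternative analyses, with an adjusted p of 0.36 under cyclic loess. Among the other core subunits, NDUFS3, NDUFS7, NDUFS8 and NDUFV2 had log2 fold changes between -0.92 (NDUFS8) and -0.62 (NDUFV2).

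The 29 supernumerary subunits, which surround the core and serve in assembly and stability, were more spread, from -1.59 to 0.53. NDUFA6, a subunit of the LYR family, read 14.24 and 14.35 in control cells and 12.74 and 12.66 in PAK1 shRNA cells, 33.1% of control (log2 fold change -1.59, standard error 0.08, adjusted p = 8.5e-06). NDUFB10, part of the membrane arm, read 15.90 and 15.90 against 14.38 and 14.25, a log2 fold change of -1.59 as well. NDUFA8, whose promoter with overlapping NRF1 letters is shown above, read 15.12 and 15.35 against 13.76 and 13.69 (log2 fold change -1.51). In each of these genes both PAK1 shRNA arrays lay far below both control arrays, with a gap much wider than the difference between arrays of a group. NDUFB6 (-1.08) and NDUFS6 (-1.03) were the other complex I members that fell by at least 2-fold.

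NDUFA9, a subunit at the junction of the matrix and membrane arms, was the only member of all 83 called higher. It read 13.03 and 13.11 in control cells and 13.55 and 13.64 in PAK1 shRNA cells, 145% of control (log2 fold change 0.53, standard error 0.08, adjusted p = 0.001). Its single probe lies on the plus strand of hg19 chr12:4777675-4778950, where the span is longer than the probe and so covers an exon junction. It was called higher in all 21 analyses run, the main one and 20 alternatives, with log2 fold changes from 0.48 to 0.66. NDUFA3, NDUFB11, NDUFB3 and NDUFC2 did not pass, with log2 fold changes of -0.05, -0.01, 0.07 and 0.17. For NDUFC2 a second probe gave -0.08, so its probes differed in sign.

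Complex II, succinate dehydrogenase, links the chain with the tricarboxylic acid (TCA) cycle and is encoded wholly in the nucleus. Of its 4 subunits 3 were lower. SDHB, the iron-sulfur subunit, read 13.48 and 13.63 in control cells and 12.54 and 12.48 in PAK1 shRNA cells (log2 fold change -1.05, standard error 0.08, adjusted p = 6.2e-05). SDHD, a membrane anchor, read 12.72 and 12.94 against 11.72 and 11.69 (log2 fold change -1.12, standard error 0.09, adjusted p = 7.3e-05), and its 3 probes had differences from -1.12 to -1.03. SDHA, the flavoprotein, fell less, from 15.03 and 15.10 to 14.55 and 14.54 (log2 fold change -0.52, adjusted p = 0.00084). The accessions of the SDHA probe also list the pseudogene SDHAP3, so the signal of the copies cannot be told apart. SDHC, the other anchor, read 13.94 and 14.04 against 13.86 and 13.83 and did not pass (log2 fold change -0.14, adjusted p = 0.15). Its 3 probes disagreed, with differences from -0.41 to 0.28.

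Complex III, the cytochrome bc1 complex, had 8 members, and all 8 were lower, with a median of -0.79. UQCRFS1, the Rieske iron-sulfur protein, fell most, from 15.49 and 15.57 in control cells to 14.11 and 14.09 in PAK1 shRNA cells. It was at 37.1% of control (log2 fold change -1.43, standard error 0.07, adjusted p = 9.9e-06), and its probe lies on the minus strand of hg19 chr19:29698356-29698415. The core proteins UQCRC1 (15.24 and 15.36 against 14.59 and 14.52) and UQCRC2 (14.33 and 14.32 against 13.52 and 13.45) fell to a like extent, with log2 fold changes of -0.75 and -0.84. Among the small subunits, UQCR10 and UQCRH had log2 fold changes of -1.19 and -1.15, and UQCR11 fell least, by 0.40 on the log2 scale. The accessions of the UQCRH probe also list its copy UQCRHL. UQCRB had a log2 fold change of -0.61 by the probe that stands for it. Its second and dimmer probe read 7.61 and 7.73 in control cells and 6.23 and 6.37 in PAK1 shRNA cells. That probe was well above background on both control arrays and on neither PAK1 shRNA array.

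Complex IV, cytochrome c oxidase, had 17 members with 14 tested. Of the 11 general isoforms and single-copy subunits, 10 were lower, with a median of -0.79. COX7B read 15.53 and 15.62 in control cells and 13.97 and 14.02 in PAK1 shRNA cells, 33.4% of control (log2 fold change -1.58, standard error 0.08, adjusted p = 7.7e-06). COX8A read 16.97 and 16.99 against 15.85 and 15.73 (log2 fold change -1.19), and COX5A, a subunit on the matrix side, 14.13 and 14.23 against 13.13 and 13.21 (-1.01). COX4I1, the usual isoform of subunit 4, read 16.15 and 16.31 against 15.49 and 15.45 (log2 fold change -0.76, standard error 0.08, adjusted p = 0.00027). COX6B1 (-0.79), NDUFA4 (-0.65) and COX7A2 (-0.52) were lower as well. COX6A1 was the general isoform that did not pass, at 18.17 and 18.13 against 18.01 and 18.06 (log2 fold change -0.11, adjusted p = 0.23).

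Of the 6 tissue or condition specific isoforms, such as the muscle forms COX6A2 and COX7A1 and the testis form COX8C, 3 were tested and none was called in the limma fit or had an unadjusted p under 0.05. COX7A1, COX7B2 and COX8C were not tested, as their probes were well above background on at most 1 array. COX4I2, the lung and hypoxia isoform, read 6.81 and 6.95 in control cells and 6.85 and 6.85 in PAK1 shRNA cells, close to the lowest signals well above background, which lay between 5.65 and 6.17 depending on the array. COX6A2 read 8.53 and 8.34 against 8.75 and 8.39, with overlapping groups. COX6B2 read 12.59 and 13.26 against 13.27 and 13.18. Its control arrays differed by more than the groups did, and without the control replicate 2 its log2 fold change was 0.64 (adjusted p = 0.0041) in place of 0.30 (adjusted p = 0.23). The COX6B2 probe also lists accessions of 3 other genes. NDUFA4L2, the hypoxia-linked relative of NDUFA4, was well above background only on the control arrays, at 6.40 and 6.47. It did not pass (adjusted p = 0.27), and the sign of its difference turned among the alternatives, from -0.59 to 0.22.

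**Figure D3:**
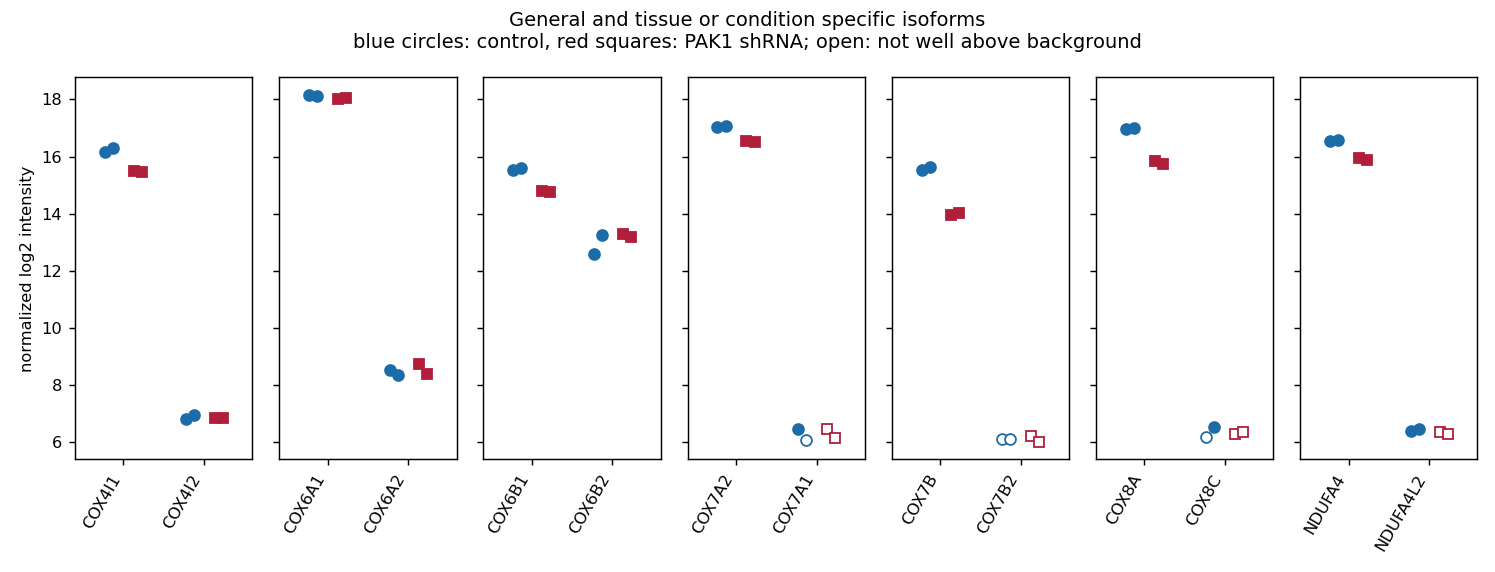
Normalized log2 intensity (vertical axis) of each array for the general isoform (left of each panel) and the tissue or condition specific one (right), with control arrays as blue circles and PAK1 shRNA arrays as red squares. Open symbols were not well above background. The general isoforms read lower in PAK1 shRNA cells, COX6A1 without passing the threshold, and heights are not comparable between probes.

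Complex V, the ATP synthase, had 15 members, and all 15 were lower. Its median log2 fold change of -0.97 (51% of control) was the lowest of the 5 complexes, and 7 of its members fell by at least 2-fold. Of the F1 subunits, alpha, beta and gamma fell alike. ATP5B (beta) read 16.05 and 16.14 in control cells and 14.93 and 14.86 in PAK1 shRNA cells, ATP5A1 (alpha) 16.46 and 16.47 against 15.32 and 15.22, and ATP5C1 (gamma) 12.96 and 13.13 against 11.92 and 11.81. Their log2 fold changes were -1.20, -1.19 and -1.18, each with a standard error of at most 0.09 and an adjusted p of at most 5.3e-05. ATP5D (delta) and ATP5E (epsilon) fell less, by 0.66 and 0.34, and the ATP5E call was lost in 3 alternatives, cyclic loess (log2 fold change -0.16) among them.

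The c-ring of the ATP synthase rotor is encoded by 3 genes for the same mature protein, ATP5G1, ATP5G2 and ATP5G3 (now ATP5MC1 to ATP5MC3). ATP5G3 had the largest fall of all members, from 17.65 and 17.78 in control cells to 15.99 and 15.95 in PAK1 shRNA cells, 29.8% of control (log2 fold change -1.75, standard error 0.08, adjusted p = 6.2e-06). Its probe lies on the minus strand of hg19 chr2:176043014-176043073. ATP5G1 read 14.33 and 14.45 against 13.24 and 13.23 (log2 fold change -1.16), and ATP5G2 16.61 and 16.62 against 15.91 and 15.84 (-0.73). All 3 were thus lower, to different extents. Of the peripheral stalk and membrane subunits, ATP5J (15.53 and 15.64 against 14.25 and 14.13, log2 fold change -1.40) and ATP5I (-1.11) fell by at least 2-fold, and the other 5 by 0.73 to 0.97.

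Set side by side, the 5 complexes had medians of -0.73 (I), -0.79 (II), -0.79 (III), -0.77 (IV) and -0.97 (V), and their ranges overlapped. As a level per array, the log2 values of each tested subunit were centred on the gene's own mean over the 4 arrays and averaged over the 77 tested subunits. The averages came to 0.33 and 0.42 in control cells, against -0.34 and -0.41 in PAK1 shRNA cells. The difference between groups was -0.75, against a within-group SD of 0.05. By complex, the same difference was -0.67 (I), -0.71 (II), -0.88 (III), -0.63 (IV) and -1.0 (V), with within-group SDs of 0.05 to 0.07. The complex IV values include 3 tissue or condition specific isoforms with a median log2 fold change of 0.14. Its 11 general isoforms and single-copy subunits had a median of -0.79, so -0.63 does not place them as the smallest fall. In every complex both PAK1 shRNA arrays lay below both control arrays. Subunits of a complex share these 4 samples and are not replicates, and the differences between complexes were not tested.

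**Figure D4:**
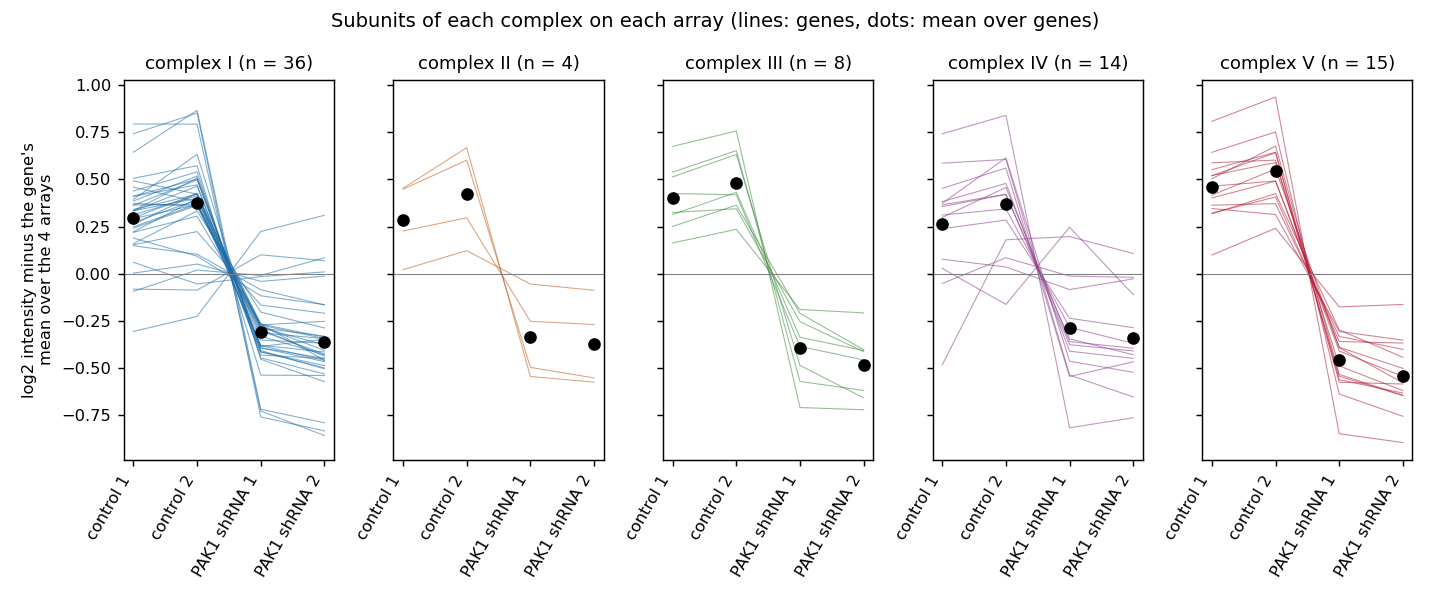
Log2 intensity minus the gene's own mean over the 4 arrays (vertical axis) on each array (horizontal axis) for the tested subunits of each complex (lines) and their mean (black dots). The means of complex V went from 0.46 and 0.54 in control cells to -0.46 and -0.54 in PAK1 shRNA cells, and the other complexes moved in the same direction.

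Of the 6 genes that match the names without being structural subunits, 3 were lower. COX4NB (-0.89), a neighbour of COX4I1 whose product belongs to a membrane protein insertion complex, ATP5L2 (-0.75), a copy of ATP5L, and ATP5SL (-0.28) passed, and the ATP5SL call was lost in 6 of the 20 alternatives. A second ATP5L2 probe was not well above background on any array, and signal of ATP5L on the first cannot be told apart. COX7A2L, a supercomplex assembly protein, read 13.08 and 13.37 against 12.97 and 12.91 and missed the threshold (log2 fold change -0.28, adjusted p = 0.057), which it passed in 4 of the 20 alternatives. ATP5S read 10.49 and 10.46 against 10.50 and 10.56 (log2 fold change 0.05). Several probes that were well above background on all arrays were present for 15 members, and in 12 of these the probes moved in the same direction, in 11 of them downwards.

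Nuclear partners outside the name pattern were lower too. Of 6 such genes 5 were lower, with a median of -0.99, where 31.8% of all genes tested were lower. CYCS, cytochrome c, read 13.92 and 14.14 in control cells and 11.99 and 12.02 in PAK1 shRNA cells, 24.6% of control (log2 fold change -2.03, standard error 0.09, adjusted p = 6.2e-06), a larger fall than that of any member. CYC1, cytochrome c1 of complex III, had a mean of 15.11 ± 0.05 (SD, n = 2) in control cells and 13.95 ± 0.08 in PAK1 shRNA cells (log2 fold change -1.16). The sixth, ATPIF1, the inhibitor of the ATP synthase, did not pass (log2 fold change -0.23, adjusted p = 0.071).

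None of the 13 subunits encoded by the mitochondrial genome was called lower. Probes of 8 of them were not saturated on any array, and of these 3 were higher (MT-ND1, MT-ND3 and MT-ND4) and none was lower in the limma fit, with a median of 0.32, where 31% of all genes tested were higher. For these 8 the control arrays differed, with SDs (n = 2) from 0.18 (MT-ND4) to 0.58 (MT-ND6). All but MT-ND6 read higher on control array 1 than on control array 2. The median of 0.32 is thus of the size of the spread between control arrays. MT-ND4 read 17.68 and 17.42 in control cells and 18.06 and 18.04 in PAK1 shRNA cells (log2 fold change 0.50, standard error 0.10, adjusted p = 0.0045). MT-CYB and MT-CO2 were saturated on all 4 arrays, so no fold is given for them. Each of the other saturated probes was so on at least 1 control array, where a fall can be hidden. The values below 0, MT-ND2 (-0.14) and MT-ND6 (-0.21), did not have an unadjusted p under 0.05 either. Across the alternatives the median of the 8 stayed between 0.16 and 0.53, with 0 to 5 called higher and 0 to 1 called lower. The probe for MT-CO1 is placed on a nuclear copy of the gene by the array annotation, and RNA of such copies cannot be told apart from mitochondrial RNA here.

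Assembly factors of the respiratory complexes were mostly lower as well, with 31 of 46 tested lower and 5 higher, and a median of -0.48. For this and the next lists, the shares over all genes tested were 31.8% lower and 31% higher. NDUFAF4, needed to build complex I, fell most, from 11.37 and 11.51 in control cells to 9.44 and 9.37 in PAK1 shRNA cells (log2 fold change -2.03). SCO2, a copper chaperone of complex IV, rose most, from 13.22 and 13.24 to 15.26 and 15.47 (log2 fold change 2.13, standard error 0.09, adjusted p = 5e-06). Of 13 TCA cycle enzymes 8 were lower and 1 was higher, with a median of -0.49. FH, fumarate hydratase, which follows succinate dehydrogenase in the cycle, fell by 2.11 on the log2 scale, and IDH3G rose by 0.25 (adjusted p = 0.021). Of 11 outer membrane and import proteins 10 were lower, from HSPD1, the matrix chaperonin, at -1.89 to TOMM20 at -0.19, which did not pass (adjusted p = 0.06).

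Regulators of mitochondrial transcription and biogenesis gave 7 lower, 1 higher and 3 not called of 11, where 31.8% of all genes tested were lower. TFAM, which packages and transcribes mitochondrial DNA, read 13.39 and 13.49 in control cells and 11.85 and 11.70 in PAK1 shRNA cells (log2 fold change -1.67, standard error 0.09, adjusted p = 1e-05). NRF1 read 8.71 and 8.74 against 7.72 and 7.88 (log2 fold change -0.93, adjusted p = 0.00011). GABPA, the DNA-binding subunit of GABP, read 10.46 and 10.70 against 9.77 and 9.82 (log2 fold change -0.78, adjusted p = 0.00049), and its partner GABPB1 rose by 0.74. PPARGC1A, a coactivator of such factors, had a log2 fold change of -0.50 (adjusted p = 0.0071). ESRRA did not pass, at 14.36 ± 0.01 (SD, n = 2) against 14.19 ± 0.27 (log2 fold change -0.17, adjusted p = 0.29 from limma), with overlapping groups.

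**Figure D5:**
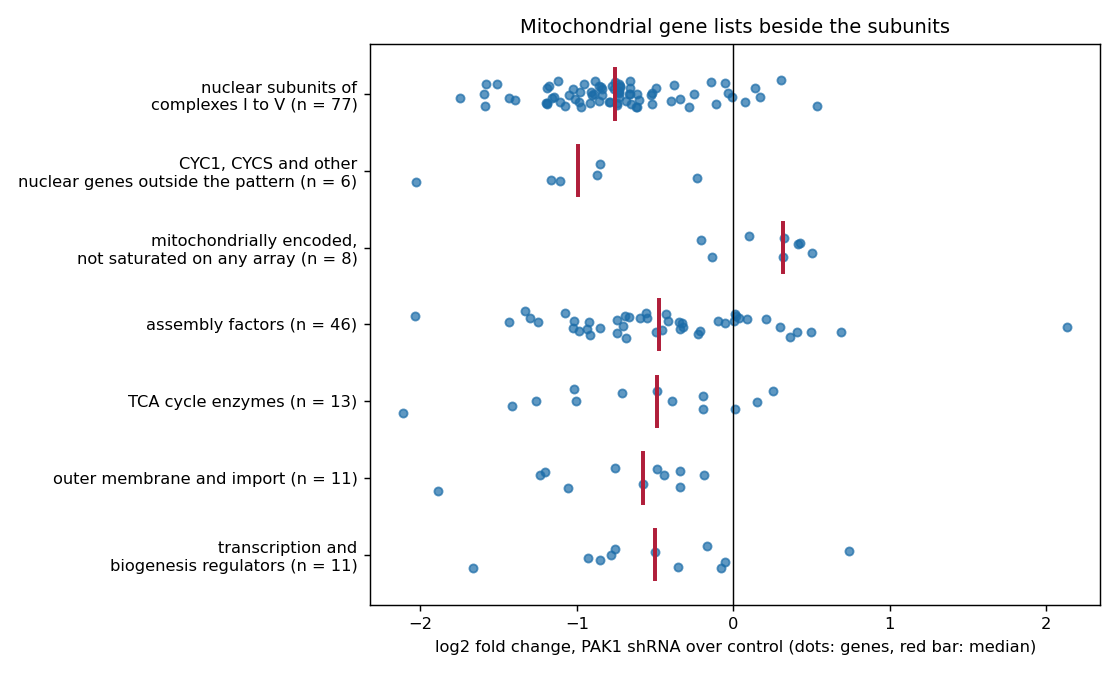
Log2 fold change (PAK1 shRNA over control, horizontal axis) of each tested gene (dots) of 7 lists (rows), with the median of each list as a red bar. The 8 unsaturated mitochondrially encoded subunits have a median of 0.32, whereas the medians of the other lists lie between -0.99 and -0.48.

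Other gene groups also held called genes, in both directions, where 31.8% of all genes tested were lower and 31% were higher. All 12 proliferation genes were lower, with a median of -3.59 and summed linear intensities of 184340 and 188460 in control cells, against 17336 and 16317 in PAK1 shRNA cells. All 12 interferon-stimulated genes were higher, with a median of 6.77 and sums of 10553 and 10357 against 1445800 and 1617500. Among 5 leukocyte markers tested, CD14 and CD68 were higher, while PTPRC and CD3E had log2 fold changes of 0.13 and 0.14 and did not pass (sums 19975 and 19092 against 50675 and 56556). Of 8 fibroblast markers 3 were higher (COL1A1, DCN and LUM), 1 was lower (PDGFRB) and 4 were not well above background on any array (COL1A2, COL3A1, PDGFRA and THY1), with sums of 4712 and 3957 against 8006 and 7805. Luminal markers gave 2 higher and 2 lower of 7. The part of these groups in the change of the members was not tested. In total RNA from a culture, a smaller share of cells of one state and less RNA of a gene per cell cannot be told apart.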

How the data were processed

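Total RNA of MCF10A.B2 cells was measured on 4 single-colour Agilent arrays, 2 per group, grouped by the sample labels. Spot intensities from Agilent Feature Extraction (version 9.5, per the submitters' processing notes) were deposited by the authors without normalization between arrays, beside a table of log2 values per probe, which matched the normalized scanner values (r of at least 0.999 on each array, column medians 9.40 to 9.42) and was used as an alternative.

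Here, mean signal minus local background was corrected with normexp (offset 50), fitted without spots of flagged local background, and quantile normalized without control spots, since flagged backgrounds of the control arrays distorted the fit over all spots. The study's methods name normexp, quantile normalization and limma's moderated tests, but no offset. Flagged spots were dropped, spots of a probe averaged, and probes kept if each array of 1 group or both was well above background. A gene was represented by its brightest probe over the 4 arrays. Genes were tested with limma 3.58.1 in R 4.3.3 and Benjamini-Hochberg adjustment over 22020 genes, threshold 0.05. Arrays give no read depth, and their number limits the precision.

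Data were simulated for this comparison with 200 of 22020 genes changed. Of these, 95% of changes of 1 and 23% of changes of 0.5 on the log2 scale were recovered, with 4 false calls. The main analysis called far larger shares of genes, 31.8% lower and 31% higher. The simulated rates therefore need not hold for it.

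A few single genes are not reported here. Members and gene lists were chosen with earlier results of these data known. Genes named are PAK1, the core subunits, the isoform pairs, the largest rise and fall of each complex and list, members changed at least 2-fold, members not called, and the main regulators. Other genes given as examples, such as ATP5D, the set of printed promoters and the brightness limit were chosen after values were seen. List symbols were matched through older names of a RefSeq table, and LYZ and some assembly factors had no match. Probe positions are those of the files (hg19), and promoters are RefSeq's (GRCh38.p14). Alternatives covered background correction, normalization, signal column, flags, probe filter and choice, test and threshold, the replicate block and each array left out.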

Additional observations from a re-analysis of the deposited data

How the results depend on the processing

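The count of members called lower lay between 62 and 71 over the 21 analyses at an adjusted p under 0.05. Of the 70 members lower in the main analysis, 62 were lower in every one and all 70 kept their sign. Members called higher numbered 2 with normexp fitted on all spots, 2 with the unpaired t test on adjusted as well as on unadjusted p, and 3 under cyclic loess. With a fold of at least 2 required as well, 20 members were lower and 0 higher, among 1971 genes lower and 1950 higher. The unpaired t test called 4370 genes higher. Cyclic loess gave medians of -0.58 (members), -0.54 (complex I), -0.65 (II), -0.63 (III), -0.55 (IV) and -0.79 (V). The processed signal at the 75th percentile gave -0.67 (members), -0.61 (I), -0.71 (III), -0.64 (IV) and -0.85 (V). The median of complex IV was -0.71 in the authors' table and -0.65 without a filter on dim probes, where untested isoforms entered, and that of complex III was -0.92 with the mean over probes. Leaving out each array in turn gave ranges of -0.80 to -0.71 for the members, -0.77 to -0.67 for complex I, -0.81 to -0.67 for IV and -1.08 to -0.87 for V, with 1 to 2 members higher and 67 to 69 lower. The cause of these shifts was not tested. Over all genes the median moved from 0.02 to 0.14 with median centring and to 0.12 with the processed signal. Same-numbered arrays did not deviate together (r = 0.0058 over 25896 probes), and with the replicate block 71 members were lower and 1 higher. Among the 66 genes followed by name, 1288 of 1319 values under alternatives kept direction and call, 15 lost the call, 16 gained it and 0 reversed. With 2 arrays per group, 1 slide and no second slide, neither slide nor position could be modelled. Saturation limits the mitochondrially encoded genes, and low signal the tissue specific isoforms.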
